A study of Mus musculus with 36 samples.

Results

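Mitochondrial ribosomal protein genes were followed across 36 mouse brain libraries. Members were the protein-coding genes whose symbol is Mrpl or Mrps followed by a number and at most 1 letter, which gave 78 of the 56980 genes in the count table. All 78 passed the filter on low counts, among 25601 genes tested, so none was lost before testing. Annotated pseudogenes of members were left out, and the 5 found in the table reached at most 0.179 CPM on average, where CPM is a gene's count scaled to the library's depth. By textbook assignment 51 members belong to the large subunit, Mrps30 and Mrps18a among them, and 26 to the small subunit. Mrps36, now placed in the oxoglutarate dehydrogenase complex, fits the symbol rule and was counted with neither subunit.

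The mice were 37 to 45 days old and were either wild type (WT) or Ndufs4 knockouts (KO), which lack a subunit of respiratory complex I. They received vehicle or CP2, an inhibitor of complex I, on 3 consecutive days by gavage, and polyA-selected brain RNA was sequenced. Sample titles also carry a letter, F or M, so genotype, treatment and letter define 8 groups. The F groups WT vehicle, WT CP2, KO vehicle and KO CP2 held 5 samples each, the M groups WT CP2 and KO CP2 held 5 each, and the M groups WT vehicle and KO vehicle held 3 each. Strain, the knockout allele and the dose are not given in the sources used here. The series text names hippocampus and cortex while each sample is labelled brain. Every sample carries its own number, and nothing in the labels says whether samples shared a litter or a day, so the p-values measure the spread between these samples.

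Mitochondria translate their own few messages, all of them for membrane subunits of the oxidative phosphorylation complexes, on a ribosome whose RNA comes from mitochondrial DNA and whose proteins are made from nuclear genes and imported. Some of these proteins descend from bacterial ribosomal proteins, and others were added in the mitochondrial lineage. Of the members, 47 were counted as having bacterial homologues and 30 as specific to mitochondria. Mrps18b was counted with the 30, although its paralogues Mrps18a and Mrps18c were counted with the 47. Ndufs4 itself is nuclear encoded, whereas several of its partner subunits in complex I are products of the mitochondrial ribosome.

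Gene counts summed to 46100000 to 88600000 per sample (median 54700000). Ndufs4 was lower in each KO group, with means of 28.2 to 35.6 CPM against 44.6 to 53.4 CPM in the WT groups (log2 fold change -0.65, SE 0.0696, adjusted p = 3.75e-07 by edgeR's quasi-likelihood test in vehicle mice), and it was still counted in every KO library. Xist was high in every F library (439 to 798 CPM) and at most 0.833 CPM in the M libraries except L291 of the KO CP2 M group, which had 47.3 CPM. L266, of the same group, stood apart from its replicates in pairwise comparisons of counts. Markers of neurons, glia, vessels, hippocampus, cortex and striatum were detected in every group, and no marker list had a gene at 0. The share of reads that fell outside annotated genes ran from 5.09% to 13.2% (median 7.61%). That share is given beside the results below because it moved with the members.

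Together the 78 members took 0.17% to 0.218% of the gene counts of a sample, a summed level of 1700 to 2250 CPM (median 1980). Apart from Mrpl53, their mean levels lay between 9.04 CPM (Mrps28) and 61.0 CPM (Mrpl3, a protein near the peptidyl transferase centre). Mrpl53 stood far below the others at 0.665 CPM, with values of 0.275 to 1.2 CPM over the samples. Its exons overlap those of Gm42688 on the same strand and of Ccdc142os on the opposite strand. The part of these overlaps in its low count was not tested. Levels per kilobase of exon allow only a rough comparison between genes, since all annotated exons of a gene entered its length. Mrpl41 was highest at 44.8 CPM per kb, followed by Mrps21 at 35.4 and Mrpl34 at 32.8. Next came Mrpl12, a protein of the factor-binding stalk, at 30.7 CPM per kb. Mrpl53 was again lowest at 0.842 CPM per kb. The median was 10.5 CPM per kb for the large subunit and 9.26 for the small subunit. Exons of 33 members overlap an exon of another annotated gene, 28 of them on the opposite strand, and the strand setting of the counting is not given in the sources used here. For Mrpl36 (opposite Ndufs6), Mrpl43 (opposite Twnk) and the pair Mrpl46 and Mrps11, which overlap each other, the counting of reads in the overlap is therefore not known.

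Promoters of members were searched for motifs of 3 factors known from nuclear mitochondrial genes. RefSeq start sites on GRCm38.p6, a different build from the one named for the counts, gave a window of 250 bases before to 50 after the start for 69 of the 78 members. The letters of an NRF1 motif (either strand) stood in the windows of 13 members (18.8%), against 5.19% of all genes in the table. NRF1 is a transcription factor of many nuclear mitochondrial genes. An ETS motif as bound by GABPA (CCGGAAGT, either strand) was found for 12 members (17.4% against 4.31%) and a YY1 motif for 5 members (7.25% against 0.995%). At least 1 of these motifs was present for 28 members (40.6%, against 9.79% of all genes). Among the 15 called members of the vehicle comparison that are in the table, 7 held at least 1, a share near that of all members. Promoters of 7 members on which the results turn are given here, each 300 bases long and 5' to 3', with motif letters in capitals, for Mrpl2 at the first of its 3 listed starts. Mrps21 holds the NRF1 letters on the reverse strand starting 91 bases before its start site and Mrpl51 the ETS letters starting 90 bases before its own. In the windows of the other 5 genes none of the 3 motifs matched, and a missing match says only that these letters are not in the window.
Mrps21, chr3:95871465-95871764, minus strand: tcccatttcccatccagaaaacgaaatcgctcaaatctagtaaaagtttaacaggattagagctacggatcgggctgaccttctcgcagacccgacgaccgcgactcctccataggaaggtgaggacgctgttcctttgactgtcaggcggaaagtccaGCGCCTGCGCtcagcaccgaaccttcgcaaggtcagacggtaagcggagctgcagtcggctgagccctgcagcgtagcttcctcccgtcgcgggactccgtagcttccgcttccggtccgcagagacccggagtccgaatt
Mrpl51, chr6:125191950-125192249, plus strand: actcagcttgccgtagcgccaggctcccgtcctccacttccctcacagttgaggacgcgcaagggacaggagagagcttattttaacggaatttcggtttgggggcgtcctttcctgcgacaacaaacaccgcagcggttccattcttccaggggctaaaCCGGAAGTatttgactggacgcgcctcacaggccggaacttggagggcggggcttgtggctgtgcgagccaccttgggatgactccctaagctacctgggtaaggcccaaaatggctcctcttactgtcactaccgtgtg
Mrpl34, chr8:71464676-71464975, plus strand: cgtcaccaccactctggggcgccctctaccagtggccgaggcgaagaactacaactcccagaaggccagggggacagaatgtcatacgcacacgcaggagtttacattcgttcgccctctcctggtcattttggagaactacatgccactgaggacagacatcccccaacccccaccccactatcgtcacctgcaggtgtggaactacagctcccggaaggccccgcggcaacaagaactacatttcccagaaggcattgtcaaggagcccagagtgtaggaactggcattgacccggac
Mrpl28, chr17:26123253-26123552, plus strand: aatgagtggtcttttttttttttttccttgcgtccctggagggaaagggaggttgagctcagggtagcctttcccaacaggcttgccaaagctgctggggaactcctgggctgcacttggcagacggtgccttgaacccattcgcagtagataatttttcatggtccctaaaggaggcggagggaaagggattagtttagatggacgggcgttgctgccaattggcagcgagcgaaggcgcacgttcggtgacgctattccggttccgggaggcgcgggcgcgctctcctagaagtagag
Mrps14, chr1:160194965-160195264, plus strand: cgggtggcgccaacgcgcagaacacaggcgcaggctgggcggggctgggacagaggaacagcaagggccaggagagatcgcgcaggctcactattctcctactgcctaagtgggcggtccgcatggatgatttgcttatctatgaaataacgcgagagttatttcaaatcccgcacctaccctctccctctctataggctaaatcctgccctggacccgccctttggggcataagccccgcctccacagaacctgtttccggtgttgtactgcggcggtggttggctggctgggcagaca
Mrps12, chr7:28741772-28742071, minus strand: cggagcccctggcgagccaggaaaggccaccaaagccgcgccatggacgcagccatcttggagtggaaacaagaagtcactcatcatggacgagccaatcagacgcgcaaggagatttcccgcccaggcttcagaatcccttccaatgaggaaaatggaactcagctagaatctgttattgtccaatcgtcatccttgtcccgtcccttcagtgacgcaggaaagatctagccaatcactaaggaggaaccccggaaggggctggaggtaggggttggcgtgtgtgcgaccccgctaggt
Mrpl2, chr17:46645971-46646270, plus strand: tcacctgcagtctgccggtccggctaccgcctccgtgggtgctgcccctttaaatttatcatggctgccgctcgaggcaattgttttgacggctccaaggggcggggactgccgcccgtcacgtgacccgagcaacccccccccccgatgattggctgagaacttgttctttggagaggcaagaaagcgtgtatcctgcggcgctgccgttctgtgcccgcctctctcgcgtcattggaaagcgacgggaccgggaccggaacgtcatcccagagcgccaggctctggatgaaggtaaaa

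Without the inhibitor, part of the mitochondrial ribosomal protein transcripts was lower in knockout than in wild-type brain. Averaged over F and M, 16 of 78 members were called lower and 0 higher (edgeR's quasi-likelihood test, adjusted p under 0.05 over all genes), while 3.8% of all genes tested were called lower and 2.87% higher, 6.67% in all. At an unadjusted p under 0.05 there stood 34 lower and 1 higher member, with 21.6% of all genes past that limit. The called changes were modest, from 11.4% to 29.7% below wild type. The median log2 fold change of the members was -0.13 against 0.02 over all genes, and 65 of 78 estimates were below 0. In bulk tissue, fewer cells of a type and less RNA per cell cannot be told apart. The large subunit supplied 11 of its 51 members (median -0.14) and the small subunit 5 of 26 (median -0.11). Among the called members were 11 of the 47 with bacterial homologues and 5 of the 30 specific to mitochondria. DESeq2 also called 16 members, all of them the same genes.

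**Figure D1:**
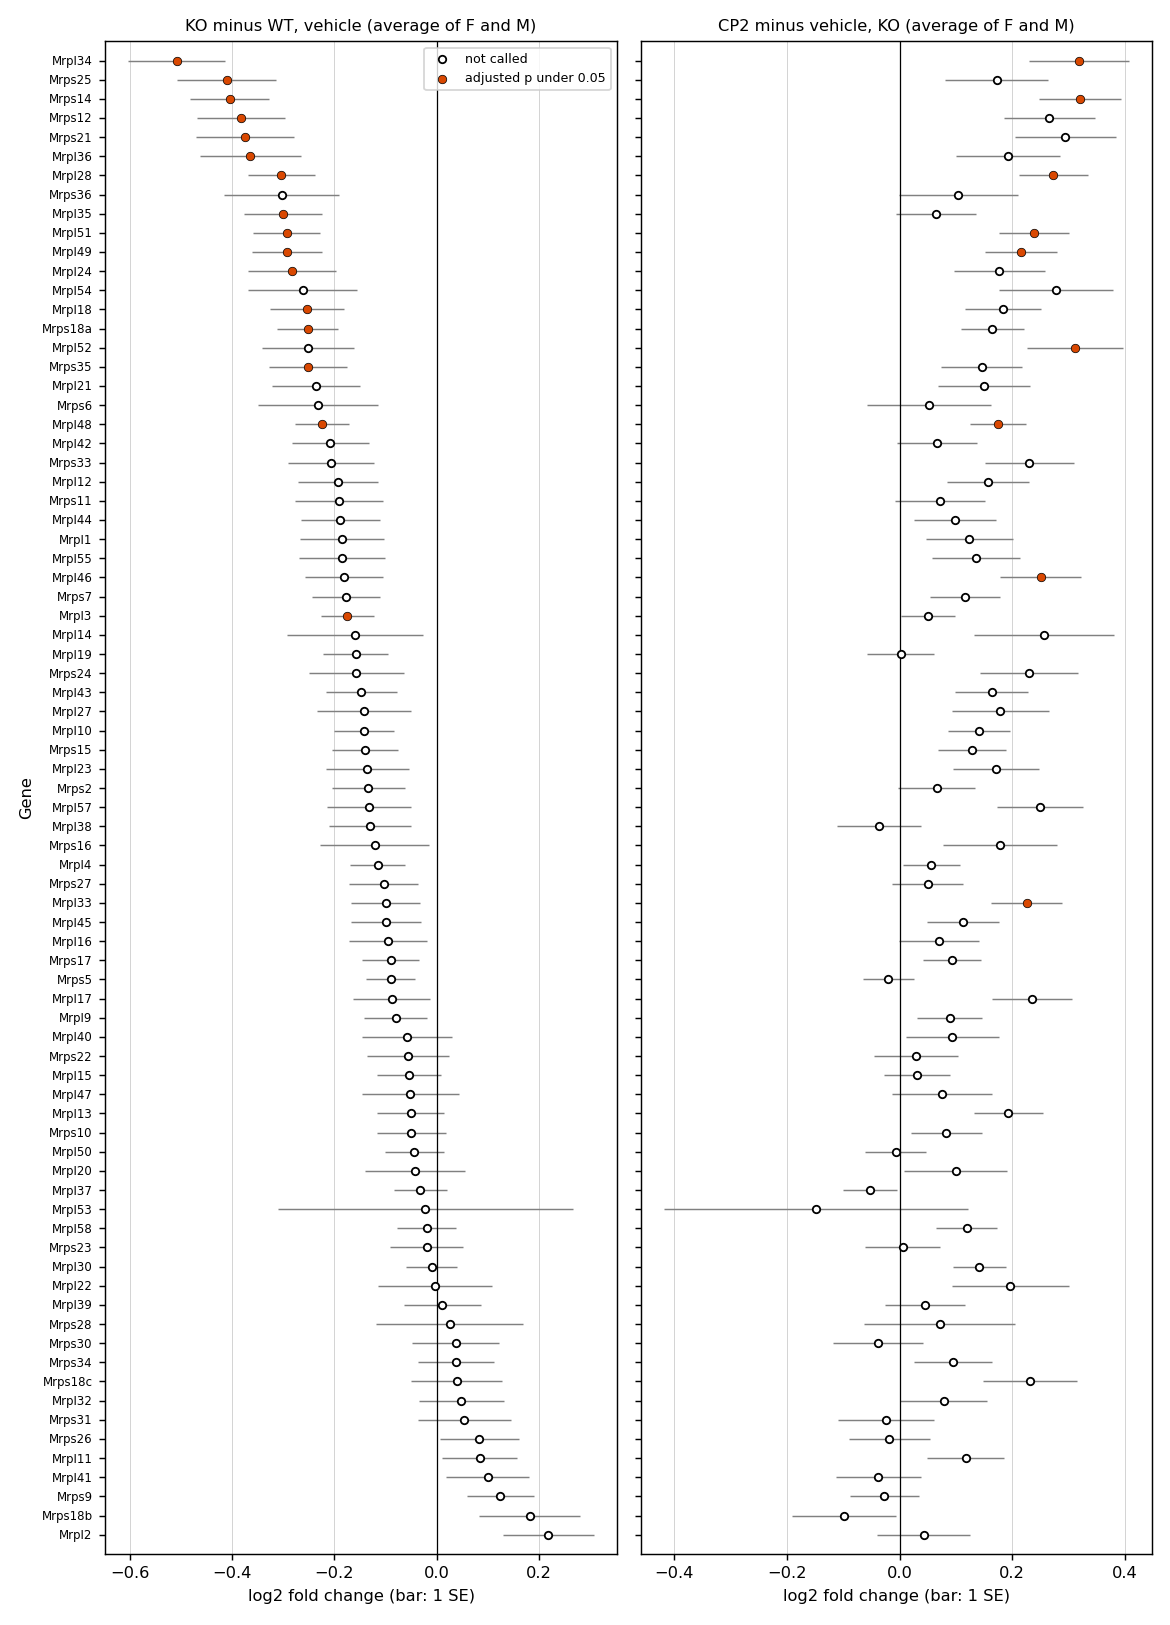
Log2 fold change (x axis, bar 1 SE) of each of the 78 members (y axis) for KO minus WT under vehicle (left, sorted by this value) and for CP2 minus vehicle in KO (right, same order), each averaged over F and M. Filled points are the 16 and 9 members with an adjusted p under 0.05 by edgeR's quasi-likelihood test, all of them below 0 on the left and above 0 on the right; the comparisons share the KO vehicle samples.

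Mrpl34, a small protein of the large subunit with a bacterial homologue, had the largest change among the called members. In F mice it was at 18.2, 24.2, 24.7, 25.0 and 28.1 CPM in WT vehicle and at 12.3, 13.3, 16.8, 17.4 and 17.4 CPM in KO vehicle. The F groups did not overlap. In M mice the WT vehicle values were 16.5, 23.3 and 23.8 CPM and the KO vehicle values 14.9, 16.8 and 17.3 CPM. The M groups overlapped through the WT library L303, which also had the lowest member score of all libraries. Averaged over F and M, Mrpl34 had a log2 fold change of -0.51 (SE 0.0946, adjusted p = 0.000801, edgeR).

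Mrps14, a small-subunit protein, was low in both letters. Its values were 30.0, 30.3, 31.6, 31.8 and 33.7 CPM in WT vehicle F and 20.2, 20.7, 25.1, 26.5 and 28.2 CPM in KO vehicle F. They were 25.0, 28.7 and 29.6 CPM in WT vehicle M and 17.8, 22.1 and 22.1 CPM in KO vehicle M. Every KO value lay below every WT value of its letter, and the averaged log2 fold change was -0.41 (0.755-fold, SE 0.0769, adjusted p = 0.00099, edgeR). Mrpl28, of the large subunit, was at 34.3, 34.8, 35.1, 39.0 and 39.4 CPM in WT vehicle F and 28.5, 28.6, 29.6, 31.3 and 35.1 CPM in KO vehicle F. In M mice the Mrpl28 values were 29.7, 34.3 and 36.3 CPM in WT vehicle against 24.3, 24.9 and 29.4 CPM in KO vehicle. The F groups overlapped in 1 KO sample and the M groups did not overlap, with an averaged log2 fold change of -0.30 (SE 0.0658, adjusted p = 0.00348, edgeR).

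Other small-subunit genes called lower were Mrps25, specific to mitochondria (log2 fold change -0.41), Mrps12, which lies at the decoding site (-0.38), and Mrps21 (-0.37). Mrps21 was at 30.2, 31.6, 32.8, 33.0 and 33.2 CPM in WT vehicle F and at 21.0, 21.8, 23.5, 23.9 and 26.7 CPM in KO vehicle F, without overlap. In M mice it ran over 17.6, 26.0 and 26.3 CPM in WT vehicle and 15.3, 19.2 and 22.8 CPM in KO vehicle, and these overlapped. Mrps35, the small-subunit gene with the smallest called change, fell by 0.25 on the log2 scale. Of the large subunit, Mrpl36, Mrpl35, Mrpl51, Mrpl49 and Mrpl24 fell by 0.36, 0.30, 0.29, 0.29 and 0.28 on the log2 scale. Mrpl18 and Mrpl48, of the central protuberance, fell by 0.25 and 0.22, Mrps18a by 0.25, and Mrpl3 by 0.17. Of the 16 called members, 8 overlap an exon of another gene, Mrpl36 among them, and 8 do not.

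Taken by letter, 12 members were called lower in F mice and 0 higher (edgeR; 2.94% of all genes were called lower and 2.02% higher, 4.96% in all). Mrps15 was among the 12 but was not called in the average (in F, log2 fold change -0.26, adjusted p = 0.0458, edgeR). In M mice edgeR called 0 members, where 0.516% of all genes were called, and DESeq2 called 2 members lower. At an unadjusted p under 0.05 there stood 16 members lower and 0 higher in M, against 12.2% of all genes in either direction. The M median of -0.14 was close to the F median of -0.13, with 63 and 62 of 78 estimates below 0. The test of the difference between F and M called 0 members by edgeR and 0 by DESeq2 (0.102% of all genes), with 1 member and 8.37% of all genes at an unadjusted p under 0.05. In simulated data with 1.5-fold changes this design called 62.5% of changed genes in the F contrast and 51.5% in the M contrast. The members' median changes were much smaller than 1.5-fold, so these rates do not say how often such changes would be called.

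Counts of called members moved with single libraries, and so did calls over all genes. Averaged over letters, the 16 called became 8 without L322 (KO vehicle M) and 9 without either L285 or L300 (WT vehicle M), while calls over all genes went from 6.67% to 2.85%, 3.66% and 3.48%. In F mice the 12 became 4 without L281 or 6 without L246 (KO vehicle F), and 6 without L295 or 5 without L296 (WT vehicle F), with 2.24% to 3.12% of all genes called in these fits against 4.96%. Fitting the F vehicle groups alone called 4 members.

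The share of reads outside genes had a higher mean in KO vehicle than in WT vehicle in both letters, though neither comparison reached an adjusted p under 0.05. Its mean in F mice was 9.24% ± 2.56 for KO vehicle and 5.99% ± 0.74 for WT vehicle (SD, n = 5 each; p = 0.0397 by a two-sided exact permutation test, adjusted p = 0.106 over 8 comparisons). In M mice the means were 12.1% ± 0.885 (SD, n = 3) in KO vehicle and 10.2% ± 1.22 (SD, n = 3) in WT vehicle, with an exact permutation p of 0.2. With this share as a covariate, edgeR called 0 of the 16 members (adjusted p of 0.0614 to 0.433). Over all 78 members, 15 had an unadjusted p under 0.05 in that fit. All 16 estimates stayed below 0, and their median log2 fold change moved from -0.30 to -0.21. Calls over all genes went from 6.67% to 1.14% in the same fit. As a term of its own the share went with lower levels in 72 of 78 members, and 6 were called lower with it and 0 higher: Mrpl34, Mrpl44, Mrps6, Mrpl35, Mrpl57 and Mrpl36 (edgeR; 2.43% of all genes were called lower with the share). The median was -0.07 on the log2 scale per SD of the share (2.62 percentage points), against 0.00 over all genes. Of the red cell markers 4 of 5 were called lower in KO vehicle in the average (summed level 38.6 to 129 CPM in the KO vehicle groups, 85.1 to 647 CPM in the WT vehicle groups). Of the hippocampal CA markers 1 of 4 was called higher in the average and 2 of 4 lower in F (mean summed level 236 CPM in KO vehicle F and 235 CPM in WT vehicle F). In M 0 of 4 were called, but their summed levels did not overlap. They ran from 261 to 304 CPM in KO vehicle M and from 176 to 197 CPM in WT vehicle M. A fit with a hippocampal CA marker score added, an alternative chosen once the data had been seen, still called all 16 members in the average and 10 of the 12 in F. In M, where 0 members were called in either fit, the score took members at an unadjusted p under 0.05 from 16 to 6. Estimates above 0 in M went from 15 to 28 of 78, and calls over all genes from 0.516% to 0.0586%. The part of the red cell markers was not tested.

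**Figure D2:**
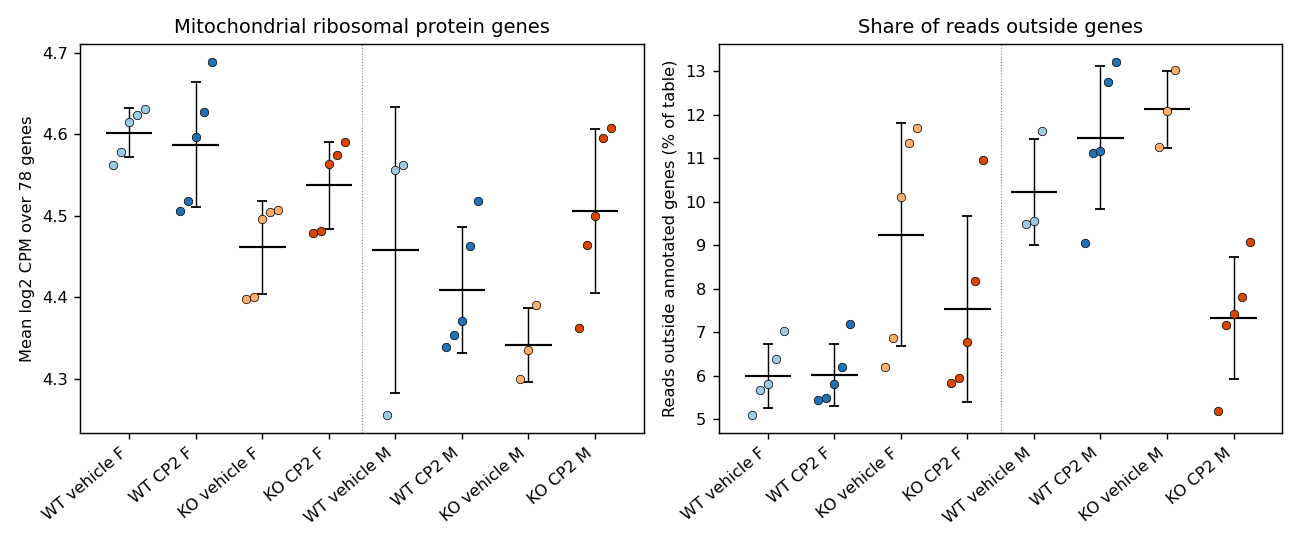
Left, mean log2 CPM over the 78 members in each sample; right, share of reads outside annotated genes (% of all reads in the table). Points are samples, long bars group means and short bars 1 SD (n = 5, or n = 3 for WT vehicle M and KO vehicle M); KO vehicle F and KO vehicle M have the lowest means of their letter on the left (4.461 and 4.342) and the highest on the right (9.24% and 12.1%).

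**Figure D3:**
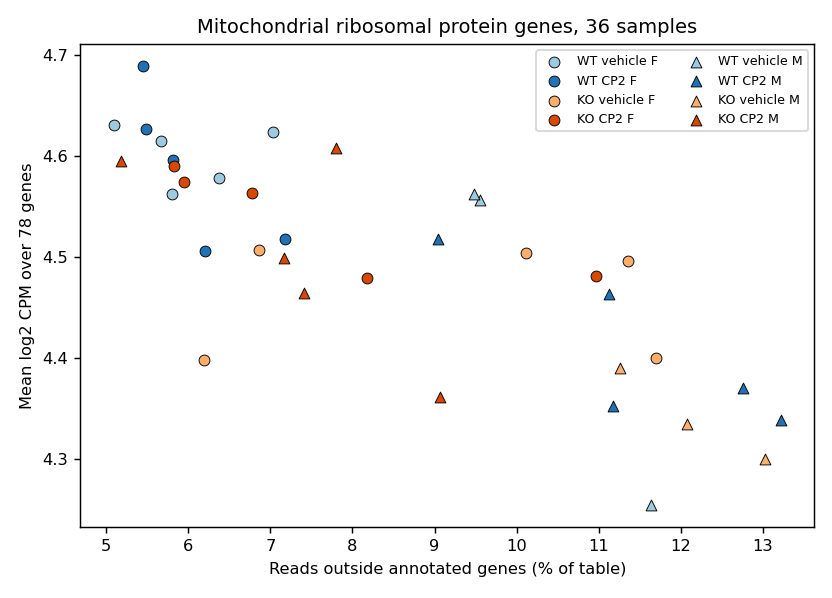
Mean log2 CPM over the 78 members (y axis) against the share of reads outside annotated genes (x axis, %) for the 36 samples, circles for F and triangles for M, colours for genotype and treatment. Samples with a share above 11% lie at member scores of at most 4.496, and the WT vehicle M library L303 is lowest at 4.255.

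A smaller set of mitochondrial ribosomal protein transcripts was higher with CP2 than with vehicle in knockout mice. Averaged over F and M, 9 of 78 members were called higher and 0 lower (edgeR), where 2.08% of all genes were called higher and 1.84% lower, 3.91% in all. At an unadjusted p under 0.05 there stood 32 higher and 0 lower, against 18.1% of all genes in either direction. The called increases were 12.9% to 24.9%, and the members' median log2 fold change was 0.12 against 0.00 over all genes, with 67 of 78 estimates above 0. Large-subunit genes made up 8 of the 9. Of the 7 genes listed here for the central protuberance, a part of the large subunit, 3 were called: Mrpl52, Mrpl46 and Mrpl48 (log2 fold changes 0.31, 0.25 and 0.18). The others were Mrps14 (0.32), Mrpl34 (0.32), Mrpl28 (0.27), Mrpl51 (0.24), Mrpl33 (0.23) and Mrpl49 (0.22). This comparison and the vehicle comparison of genotypes share the KO vehicle samples, so their values are not independent of each other.

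In M mice 7 members were called higher and 0 lower (edgeR; 2.36% of all genes were called higher and 2.74% lower, 5.1% in all; 30 members and 19.4% of all genes had an unadjusted p under 0.05). Mrps21 had the largest of these changes, with 15.3, 19.2 and 22.8 CPM in KO vehicle M and 21.2, 26.7, 26.8, 30.0 and 32.8 CPM in KO CP2 M (log2 fold change 0.53, SE 0.138, adjusted p = 0.0181, edgeR). Its groups overlapped in 1 sample. Mrpl52 was at 15.3, 15.4 and 15.5 CPM in KO vehicle M and at 17.2, 18.2, 21.4, 22.9 and 26.7 CPM in KO CP2 M, without overlap (0.47, SE 0.129, adjusted p = 0.0264, edgeR). Mrps14 was at 24.3, 26.2, 27.5, 29.0 and 31.8 CPM in KO CP2 M and Mrpl28 at 30.6, 31.9, 35.4, 37.5 and 38.1 CPM. Set against the KO vehicle M values given above, neither gene's groups overlapped, and the log2 fold changes were 0.43 and 0.41 (adjusted p = 0.0165 and 0.00752, edgeR). Mrpl51 (0.40), Mrpl49 (0.32) and Mrpl33 (0.31) were the other genes called in M mice.

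In F mice edgeR called 0 members for CP2 in the knockout, and DESeq2 also called 0 (0.0547% of all genes were called higher and 0.0312% lower, 0.0859% in all). Without adjustment 10 members stood higher and 0 lower at p under 0.05, a share close to the 11% of all genes past that limit in either direction. Estimates were above 0 for 61 of 78 members. The F median was 0.08 against 0.17 in M. In M the log2 fold changes moved with exon length, with medians of 0.28 for the 26 members with the shortest exons and 0.10 for the 26 with the longest (Spearman -0.37 across 78 genes, which are not independent), and in F they did not (0.08 and 0.07, Spearman 0.01). For KO against WT the same correlation was 0.19 under vehicle in the average and -0.36 under CP2 in M. The part of length in the results was not tested. Mrpl34 had the smallest unadjusted p in F mice, moving from the KO vehicle F values above to 18.3, 18.4, 18.6, 19.8 and 20.0 CPM in KO CP2 F without overlap (log2 fold change 0.30, SE 0.116, adjusted p = 0.295, edgeR). The difference between F and M in this effect was called for 0 members by edgeR and by DESeq2 (0.691% of all genes), with 4 members and 14.7% of all genes at an unadjusted p under 0.05.

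The CP2 counts in the knockout moved with single libraries, again together with calls over all genes. Without L322 (KO vehicle M) 0 members were called in the average and 0 in M, and calls over all genes went from 3.91% to 0.742% and from 5.1% to 0.879%. Without L319 (KO vehicle M) or L266 (KO CP2 M) 2 were called in the average (2.64% and 2.43% of all genes) and 2 in M (2.63% and 3.02%). Without L298 (KO CP2 M), 16 and 14 were called (5.41% and 6.86% of all genes). Leaving out L292 or L299 (KO CP2 M) gave 5 and 4 in the average (2.92% and 2.91% of all genes), and leaving out L292 gave 4 in M (3.14%). Leaving out L281 (KO vehicle F), L234 or L216 (KO CP2 F) gave 3, 4 and 5 in the average (2.26%, 2.86% and 3.16%). Without both L266 and L291, 2 were called in the average and 1 in M (2.05% and 1.45% of all genes). Adding the title number as a covariate called 0 in the average (0.199% of all genes), as did fitting only the groups compared, while DESeq2 called 14. In both letters every KO CP2 sample had a lower title number than every KO vehicle sample. Within the knockout, the effect of CP2 and anything that went with the order of the numbers therefore cannot be told apart.

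Reads outside genes again moved with the members. Their share was 7.33% ± 1.4 (SD, n = 5) in KO CP2 M against 12.1% in KO vehicle M (p = 0.0357 by the exact permutation test, two-sided, which is the lowest that 5 against 3 samples allow, adjusted p = 0.106), and 7.54% ± 2.13 (SD, n = 5) in KO CP2 F against 9.24% in KO vehicle F (exact permutation p = 0.286). With the share as a covariate 0 of the 9 members were called in the average and 0 of the 7 in M, and 0 genes of all those tested were called in either contrast. All 9 estimates stayed above 0, and their median went from 0.25 to 0.14. Some markers of other cells were also higher: 3 of 5 microglia markers and 2 of 4 oligodendrocyte markers were called higher for CP2 in KO in the average. By letter, 0 of either list were called in F, and 2 microglia markers and 1 oligodendrocyte marker in M. Summed microglia markers were 182 to 276 CPM in the KO vehicle groups and a mean of 268 CPM in KO CP2 F and 297 CPM in KO CP2 M, and summed oligodendrocyte markers 6270 to 9540 and 6390 to 12100 CPM. Cerebellum markers, 1 of 3 called higher, reached 192 CPM in KO CP2 F, against at most 68.1 CPM in KO vehicle F. The part of these markers in the result was not tested.

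**Figure D4:**
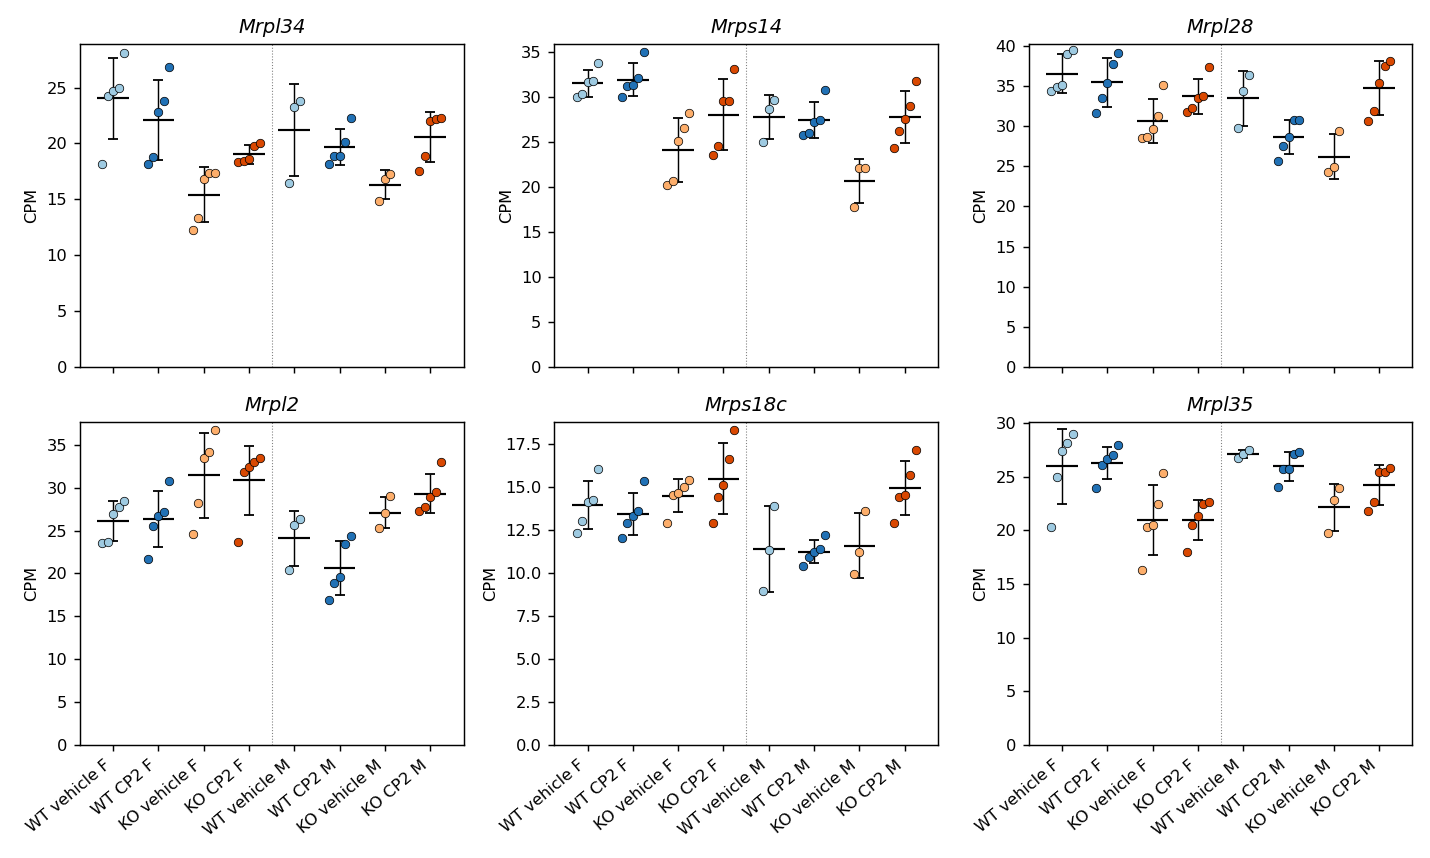
CPM (y axis, from 0) of Mrpl34, Mrps14, Mrpl28, Mrpl2, Mrps18c and Mrpl35 in every sample of the 8 groups (x axis); points are samples, long bars means and short bars 1 SD (n = 5, or n = 3 for WT vehicle M and KO vehicle M). In the upper row the KO vehicle groups are low; in the lower row Mrpl2 is higher in KO CP2 M (27.3 to 33.0 CPM) than in WT CP2 M (16.9 to 24.4 CPM), and Mrpl35 is lower in KO CP2 F (18.0 to 22.6 CPM) than in WT CP2 F (23.9 to 27.9 CPM).

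In wild-type mice CP2 gave no called member. EdgeR and DESeq2 called 0 in the average, in F and in M, and edgeR called 0% of all genes. Members with an unadjusted p under 0.05 numbered 4 in the average, 3 in F and 2 in M, where 4.03%, 2.65% and 3.04% of all genes passed that limit. Mrps15, a small-subunit protein, had the smallest of these p-values, in F mice (log2 fold change -0.29, SE 0.0791, adjusted p = 1, edgeR), with values of 23.5, 25.2, 26.9, 28.1 and 28.7 CPM in WT vehicle F and 20.3, 21.2, 21.2, 21.7 and 23.8 CPM in WT CP2 F. The members' medians were -0.03 in the average, -0.01 in F and -0.04 in M. The shares of reads outside genes were close in F (6.02% and 5.99%) and 11.5% against 10.2% in M.

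The effect of CP2 differed between genotypes for 1 member. In the interaction of genotype and CP2 only Mrpl28 was called among the members (edgeR; log2 difference 0.41, SE 0.087, adjusted p = 0.0222; 0.316% of all genes were called higher and 0.715% in either direction). CP2 went with 31.6, 33.5, 35.3, 37.7 and 39.1 CPM of Mrpl28 in WT CP2 F and 25.7, 27.5, 28.6, 30.7 and 30.7 CPM in WT CP2 M, and in the knockout with 31.7, 32.2, 33.5, 33.7 and 37.3 CPM in KO CP2 F. The median interaction was 0.16 over the members and -0.01 over all genes, and 27 members were above and 0 below 0 at an unadjusted p under 0.05, against 14.6% of all genes in either direction. Mrpl34 (0.43, adjusted p = 0.0821) and Mrps15 (0.30, adjusted p = 0.0833) were not called by edgeR. DESeq2 called 3 members. The Mrpl28 call was lost without L322 (KO vehicle M), L285 or L300 (WT vehicle M), each giving 0 called members and 0% of all genes, and when the outside-gene share was a covariate (0.25, adjusted p = 0.559, edgeR; 0 of all genes called). Without L303 (WT vehicle M) 5 members were called, without L298 (KO CP2 M) 3 and without L277 (WT vehicle F) 2 (1.7%, 1.53% and 0.871% of all genes).

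Under CP2 the comparison of knockout and wild type gave 7 called members in the average, with most estimates above 0 in M but not in F. Estimates were above 0 for 61 of 78 members in M and for 33 of 78 in F. With 1 sample left out at a time, the members' median ran from 0.048 to 0.115 in M and from -0.055 to -0.016 in F. Averaged over F and M, 6 members were called higher and 1 lower in KO (edgeR), where 5.54% of all genes were called higher and 6.07% lower, 11.6% in all, so the members' share called (8.97%) lay below that of all genes. The members' median was 0.02 against 0.01 over all genes. Mrpl2, a core protein close to the peptidyl transferase centre, had the largest change. In F mice its values were 21.7, 25.5, 26.7, 27.2 and 30.8 CPM in WT CP2 and 23.7, 31.8, 32.4, 33.0 and 33.4 CPM in KO CP2. In M mice they were 16.9, 18.9, 19.6, 23.4 and 24.4 CPM in WT CP2 and 27.3, 27.8, 28.9, 29.5 and 33.0 CPM in KO CP2, without overlap. Its averaged log2 fold change was 0.37 (SE 0.0768, adjusted p = 0.00112, edgeR) and 0.34 with the share as a covariate (adjusted p = 0.00305). Under vehicle Mrpl2 also had the highest estimate of all members (0.22), without being called.

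Mrps18c, 1 of 3 paralogues of the bacterial small-subunit protein S18, was at 12, 12.9, 13.3, 13.6 and 15.3 CPM in WT CP2 F and 12.9, 14.4, 15.1, 16.6 and 18.3 CPM in KO CP2 F. In M mice it was at 10.4, 10.9, 11.2, 11.4 and 12.2 CPM in WT CP2 and 12.9, 14.4, 14.5, 15.7 and 17.1 CPM in KO CP2, without overlap (averaged log2 fold change 0.31, SE 0.0769, adjusted p = 0.0056, edgeR). Mrpl30 (0.19), Mrps34, specific to mitochondria (0.20), Mrpl17, at the exit tunnel (0.19), and Mrpl13 (0.18) were the other genes called higher. Mrpl35 was the only member called lower in the average: 23.9, 26.1, 26.6, 27.0 and 27.9 CPM in WT CP2 F against 18.0, 20.5, 21.3, 22.4 and 22.6 CPM in KO CP2 F. In M mice the Mrpl35 values were 24.0, 25.7, 25.7, 27.1 and 27.3 CPM in WT CP2 and 21.8, 22.6, 25.4, 25.4 and 25.8 CPM in KO CP2. The F groups did not overlap and the M groups did, and the averaged log2 fold change was -0.21 (SE 0.0658, adjusted p = 0.0268, edgeR), after -0.30 under vehicle, where Mrpl35 was also called.

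By letter, 7 members were called higher and 1 lower in M mice (edgeR; 9.99% of all genes, 4.75% higher and 5.24% lower). At an unadjusted p under 0.05, 15 members were higher and 1 lower in M, against 23.6% of all genes in either direction, and the members' median was 0.08 against 0.00 over all genes. To the 6 of the average were added Mrpl28 (log2 fold change 0.28, adjusted p = 0.0212, edgeR) and, on the lower side, Mrpl3 (-0.19, adjusted p = 0.0497, edgeR), whose values were 60.8, 61.3, 63.7, 65.5 and 69.4 CPM in WT CP2 M and 50.9, 53.4, 53.8, 60.4 and 63.1 CPM in KO CP2 M. In F mice edgeR called 0 members (0.715% of all genes were called higher and 1.28% lower, 2% in all), and DESeq2 called 3. At an unadjusted p under 0.05 there stood 3 members higher and 11 lower, near the 15.7% of all genes past that limit. Mrpl35 had the smallest p in F mice (-0.33, adjusted p = 0.0539, edgeR). The difference between F and M was called for 0 members by edgeR and by DESeq2 (0.82% of all genes). With 11 members at an unadjusted p under 0.05, their share was about that of all genes (14.2%). Its median was -0.15, and 0.03 with the share as a covariate.

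The share of reads outside genes was 7.33% in KO CP2 M and 11.5% ± 1.64 (SD, n = 5) in WT CP2 M (p = 0.0159, two-sided exact permutation test, adjusted p = 0.106), and 7.54% and 6.02% in F (p = 0.159, exact permutation), so the means of the letters went in opposite directions. With it as a covariate 10 members were called in the average, 4 higher and 6 lower, where 11.5% of all genes were called, and Mrpl2, Mrps18c, Mrpl30 and Mrpl35 were among them. In M mice 0 of the 8 were called with the covariate (3.37% of all genes called), and the members' median went from 0.08 to -0.02. Without L292 (KO CP2 M), L262 or L289 (WT CP2 M) 4 members were called in the average, with 10.3%, 8.87% and 10.6% of all genes against 11.6%. In M mice 3 were called without L262 or L263 (WT CP2 M), 4 without L299 and 5 without L266, L292 (KO CP2 M) or L289 (WT CP2 M), with 5.72% to 7.93% of all genes called against 9.99%. In F mice 4 were called without L234 and 1 without L233 (KO CP2 F), with 3.65% and 1.79% of all genes. Without L234 1 member, and without L298 (KO CP2 M) 2, were called in the difference between F and M (2.27% and 1.84% of all genes). Of the astrocyte markers 2 of 4 and of the microglia markers 4 of 5 were called higher in KO CP2 M (mean summed level of the microglia markers 297 CPM, against 226 CPM in WT CP2 M), and 2 of 3 cerebellum markers in KO CP2 F (16.1 to 192 CPM, against 14.4 to 27 CPM in WT CP2 F). Their part was not tested.

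**Figure D5:**
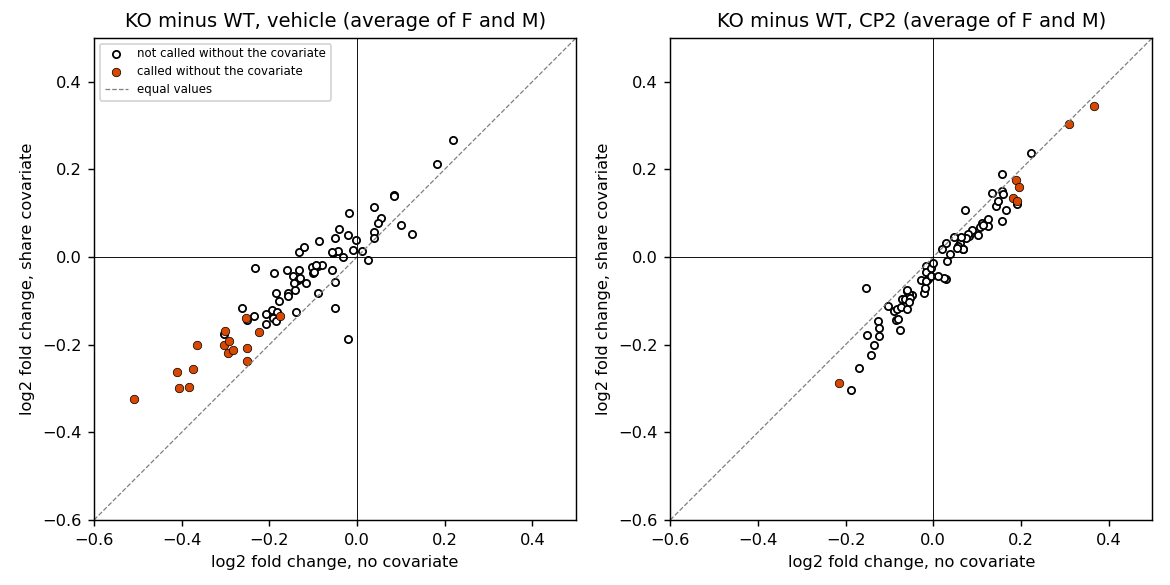
Log2 fold change of the 78 members without (x axis) and with (y axis) the outside-gene share as a covariate, for KO minus WT under vehicle (left) and under CP2 (right), averages of F and M; filled points are members called without the covariate and the dashed line marks equal values. On the left the 16 filled points lie above the line, closer to 0 with the covariate; on the right Mrpl2 and Mrps18c stay near it (0.37 and 0.34, 0.31 and 0.30).

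Other genes of mitochondrial translation were read from lists drawn up beside the members. Of the 13 translation factors found, 3 were called lower in KO vehicle in the average and 0 higher (edgeR, against 6.67% of all genes called): Tufm, the elongation factor that brings aminoacyl-tRNA to the ribosome (log2 fold change -0.44), Mrrf, the recycling factor (-0.49), and Mtrf1l, a release factor (-0.37). Of 24 assembly genes 2 were called lower, Fastkd2, an RNA-binding protein (-0.34), and Mtg2, a GTPase (-0.36). None of the 5 mitoribosomal proteins with other names was called by edgeR, with 3 lower at an unadjusted p under 0.05. Of 9 regulators Esrra, a nuclear receptor that acts on mitochondrial genes, was called lower (-0.31). Nrf1, Gabpa and Yy1, whose motifs were searched, were not among the genes called in any comparison. With the share as a covariate none of these 6 genes was called under vehicle (adjusted p of 0.0794 to 0.387, edgeR).

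Under CP2, where 11.6% of all genes were called between the genotypes, 2 of 13 translation factors and 2 of 9 regulators were called lower in the knockout. Assembly genes gave 2 higher and 2 lower of 24, and mRNA handling genes 1 lower of 13. Tufm had a log2 fold change of -0.30 (adjusted p = 0.00482, and 7.57e-05 with the share as a covariate, edgeR), Mrrf of -0.32, Fastkd2 of -0.36, Mtg2 of -0.27, Pprc1, a coactivator related to PGC-1, of -0.39 and Esrra of -0.23. Malsu1, which assists assembly of the large subunit, and Trub2, a pseudouridine synthase, were higher (0.28 and 0.20). All 8 were still called with the covariate, whereas Pnpt1, a mitochondrial ribonuclease, was called lower (-0.25) without it only.

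The ribosome's own RNAs, mt-Rnr1 and mt-Rnr2, were called higher for CP2 in the knockout (0.38 and 0.29 in the average, 0.66 and 0.50 in M, edgeR), and higher in KO CP2 M than in WT CP2 M (0.37 for each). In polyA-selected libraries their counts do not measure all of the rRNA. None of these calls was kept with the share as a covariate (adjusted p of 0.0812 to 0.406, edgeR). For CP2 in the knockout 2 of 24 assembly genes were called in the average (3.91% of all genes): Mpv17l2, a protein of the inner membrane, higher (0.31) and Mettl17, of small-subunit assembly, lower (-0.37). In M mice Aurkaip1, a small-subunit protein outside the naming rule, was called higher (0.38), and Guf1, an elongation factor, Mettl17 and Pnpt1 lower (-0.71, -0.67 and -0.41).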

How the data were processed

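Brain polyA RNA of 36 mice was sequenced. The authors deposited raw counts per Ensembl gene in 1 table, made with STAR and HTSeq on GRCm39 per the submitters' processing notes. Versions, the annotation release and the strand setting are not given in the sources used here. The 5 summary rows of the table stayed out of the gene counts, and the row of reads without a feature, over the table's total, gave the share of reads outside genes. Symbols and exon lengths came from GENCODE M21, which named 52125 of 56980 genes (91.5%). Promoters came from RefSeq (GRCm38.p6).

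Counts were tested with edgeR 4.0.16 in R 4.3.3: TMM, filterByExpr on the 8 groups, robust glmQLFit and glmQLFTest on all 36 samples with 1 coefficient per group, 16 contrasts, Benjamini-Hochberg adjustment over 25601 genes. Averages weight F and M equally. Standard errors are the absolute log2 fold change over the square root of F. CPM uses TMM library sizes. Scores are mean log2 CPM with a prior count of 2. Shares were compared by exact permutation tests. On simulated data with 200 genes changed 1.5-fold, 74% were called in the averaged vehicle contrast with 4 unchanged genes, and 0 genes in a contrast without change.

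Members, lists and tests were chosen with earlier results of these data known. Named genes were up to 8 called members each way per contrast by absolute log2 fold change, or the smallest p-values where fewer than 3 were called, and up to 3 called genes per list. Mrps35, Mrpl24, Mrpl18, Mrpl48, Mrps18a, Mrpl3, Mrpl49 and Mrpl51 in the vehicle comparison, and the per-sample values shown, complete the called sets beyond that rule. Alternatives were RLE size factors, no filter, DESeq2 1.42.0, the groups compared alone, covariates (the share, the title number) and leaving out each sample. Leaving out L266 and L291 together and a hippocampal CA marker score as a covariate were added after seeing the data.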

Additional observations from a re-analysis of the deposited data

Results flagged for a closer look

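Groups of 5 samples were screened for the members picked by the rule for named genes and for Mrpl41 and Mrpl53. The member score and summed level, the outside-gene share and Ndufs4 were screened too. Of the resulting 204 sets of values, 10 (4.9%) had a sample set apart from the rest by Dixon's criterion, where chance gives about 1 in 20. In KO CP2 F these were Mrpl2 at 23.7 CPM in L233 (others 31.8 to 33.4), Mrps34 at 24.9 CPM in L233 (others 30.1 to 32.2), Mrps17 at 39.3 CPM in L201 (others 46.6 to 49.4) and Mrps6 at 19.4 CPM in L234 (others 11.6 to 13.0). In KO CP2 M, Mrpl30 was at 39.2 CPM in L298 (others 43.6 to 45.3) and Mrps6 at 12.9 CPM in L298 (others 17.3 to 18.5). In WT CP2 M, Mrpl30 was at 32.6 CPM in L262 (others 36.6 to 38.0), Mrpl48 at 57.7 CPM in L267 (others 51.3 to 52.1) and Mrpl52 at 21.4 CPM in L267 (others 15.8 to 17.2). In KO vehicle F, Mrpl49 was at 20.9 CPM in L281 (others 26.8 to 28.7).

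The effect of CP2 on Mrpl28 differed between genotypes (log2 difference 0.41, adjusted p = 0.0222, edgeR, and adjusted p = 0.559 with the outside-gene share as a covariate). That call was also lost without L322, L285 or L300. The effect of genotype under CP2 on mt-Rnr1 differed between F and M (F minus M -0.64, adjusted p = 0.0467, edgeR, and adjusted p = 0.643 with the outside-gene share as a covariate).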

How the results depend on the processing

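No call of a named gene reversed under any alternative. The members' median changed sign with the outside-gene share as a covariate for KO against WT under CP2 in M (0.08 to -0.02), in the average (0.02 to -0.02) and for F minus M under CP2 (-0.15 to 0.03). Other medians whose sign changed, here or with a sample left out, lay within 0.05 of 0 in the fit reported. Of 47 named calls, 47 were kept by DESeq2, 43 with RLE size factors, 36 without a filter, 41 with the hippocampal CA score, 29 with the title number, 27 without L266 and L291, 30 of 46 with the groups compared alone, and 4 with the outside-gene share as a covariate. With that share 0 members were called for KO against WT under vehicle in the average and in F, under CP2 in M, for CP2 in KO in the average and in M, and in the interaction. For CP2 in KO in the average, DESeq2 and the CA score each called 14, L266 and L291 left out 2, the title number and the groups compared alone 0. For CP2 in KO M, the title number gave 2, the CA score 4 and leaving out L266 and L291 1. For KO against WT in vehicle, the groups alone gave 4 in F and DESeq2 2 in M. Under CP2, no filter and the title number each gave 4 in the average, DESeq2 3 and the title number 1 in F, and leaving out L266 and L291 3 in M. DESeq2 called 3 in the interaction. Leaving out each sample in turn gave 8 to 24 (KO against WT, vehicle, average), 4 to 15 (F) and 0 to 0 (M), 4 to 7 (CP2, average), 0 to 4 (F) and 3 to 10 (M), 0 to 16 (CP2 in KO, average), 0 to 0 (F) and 0 to 14 (M), 0 to 5 in the interaction and 0 to 2 for F minus M under CP2. The causes were not tested. Mrpl53, with 14 counts in its lowest sample, limits only itself, since no other member fell below 275 counts. No paired analysis was possible because every sample carries its own number and no number is shared between groups.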
